A study of Mus musculus with 3 samples.

Results

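The peaks described here lie in the mouse major histocompatibility complex (MHC, called H2 in the mouse), taken as 34 to 37.3 Mb of chromosome 17 on build mm9, a window of 3.3 Mb. Members are all peaks of the H3K27ac and H3K4me3 lists that overlap this window by at least 1 bp: 134 of 29468 H3K27ac peaks and 107 of 18142 H3K4me3 peaks. The cells are cultured mouse pre-B-cell acute lymphoblastic leukaemia cells whose driver is Bcr-Abl, a fused tyrosine kinase that is constantly active, grown in RPMI medium with 10% serum and given no treatment. Chromatin immunoprecipitation followed by sequencing gave 1 library for acetylation of histone H3 at lysine 27 (H3K27ac), 1 for its trimethylation at lysine 4 (H3K4me3) and 1 for control IgG from the same cells. The sources used here give no other allele of these cells and do not say whether they descend from 1 clone. With 1 library per mark there was no replicate, no test between samples and no p-value, and the sequencing depth is unknown. Peak lists hold no expression values, so the cell type was not checked against its markers.

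The MHC is one of the most gene-rich parts of the mammalian genome. Class I proteins such as H2-K1 and H2-D1 present peptides from inside the cell to CD8+ T cells, and Tap1, Tap2, Tapbp, Psmb8 and Psmb9 cut, carry and load those peptides. Class II proteins such as H2-Aa, H2-Ab1 and H2-Eb1 present peptides from outside the cell and are a known feature of the B lineage, with H2-DMa, H2-DMb1, H2-Oa and H2-Ob acting on peptide loading. Class III genes between them include the cytokines Tnf, Lta and Ltb, complement genes such as C4b and C2, and many housekeeping genes such as Bag6 and Ddx39b. H3K4me3 marks active or poised promoters, and H3K27ac marks active promoters and enhancers.

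Gene order along the chromosome was taken from RefSeq on GRCm38.p6, a build whose positions differ from those of the peak lists. It lists 178 protein-coding genes from Daxx to H2-M2, of which 35 have H2 symbols and 16 are Olfr (olfactory receptor) genes. Whether all of these genes lie inside the mm9 window was not checked. From lower to higher positions the order runs from Daxx, Tapbp and H2-K1 through Brd2 and the class II and peptide-loading genes (H2-DMa, Psmb9, Tap1, Psmb8, Tap2, H2-Ab1, H2-Aa, H2-Eb1), then Btnl genes, then class III from Notch4 to Ddx39b. It goes on with H2-D1 and the H2-Q genes, framework genes such as Pou5f1, Flot1, Tubb5 and Abcf1, the H2-T genes, the H2-M10 group, a Trim group, and at the upper end Mog, Gabbr1 and the Olfr genes. An mm9 annotation or genome was not used here, so no peak is assigned to a gene, and peaks are named by their mm9 positions counted from 1.

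The window was dense in both marks. It held 40.6 H3K27ac peaks per Mb, against 13.0 per Mb on the rest of chromosome 17 and 11.5 per Mb over chromosomes 1 to 19 and X. For H3K4me3 the density was 32.4 peaks per Mb, against 8.32 on the rest of chromosome 17 and 7.05 over chromosomes 1 to 19 and X. The window density was thus 3.54 times the genome value for H3K27ac and 4.60 times for H3K4me3. H3K27ac peaks covered 326.3 kb, or 9.89% of the window, compared with 2.56% of chromosomes 1 to 19 and X. H3K4me3 peaks covered 250.6 kb, or 7.59%, compared with 1.39%. Either mark covered 10.8% of the window. The median gap between neighbouring H3K4me3 peaks was 12.0 kb in the window and 37.4 kb over chromosomes 1 to 19 and X, and for H3K27ac these gaps were 7.24 and 15.7 kb.

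Peaks were unevenly spread along the window, as the plot of peak widths by position shows. From 34 to 35.5 Mb lay 95 H3K27ac peaks (70.9% of the window's) and 65 H3K4me3 peaks (60.7%). All but 4 peaks of each mark lay below 36.5 Mb. The longest stretch with neither mark ran for 520.3 kb (36452685 to 36973000), followed by 187.3 kb (34785415 to 34972762) and 144.3 kb (34536249 to 34680581). At the window's edges, the lowest members were an H3K27ac peak of 687 bp at 34001926 and an H3K4me3 peak of 2603 bp at 34025652. The highest were an H3K27ac peak of 616 bp at 37182940 and an H3K4me3 peak of 1545 bp at 37182613. Just outside, the nearest peaks started at 33979780 (H3K27ac) and 33979597 (H3K4me3) below the window and at 37406554 and 37406525 above it, so neither edge divided a peak.

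**Figure D1:**
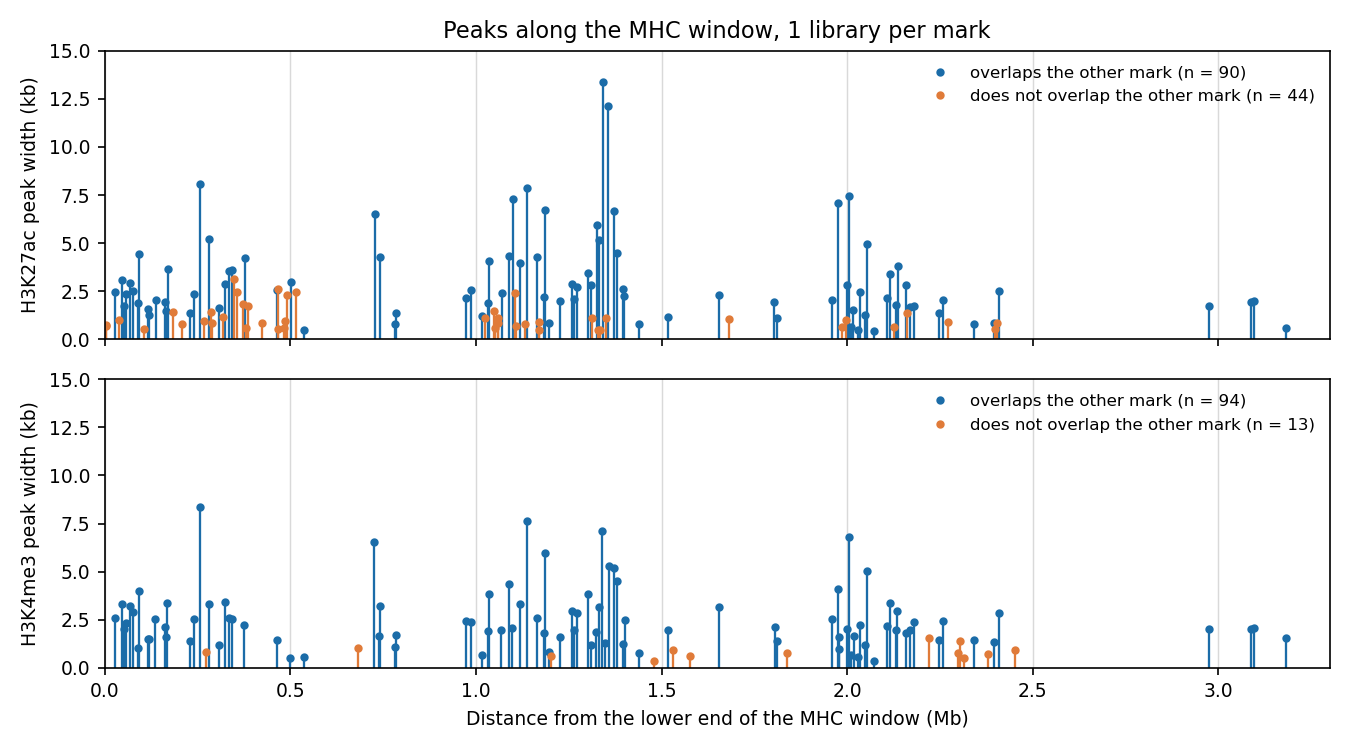
Width in kb of each H3K27ac peak (top, 134 peaks) and H3K4me3 peak (bottom, 107 peaks) against the distance of its centre from the lower end of the window in Mb, 1 library per mark, with grey lines at each 0.5 Mb. Blue peaks overlap the other mark (90 and 94) and orange peaks do not (44 and 13); peaks crowd into the lower part and 4 of each mark lie beyond the long empty stretch.

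Sub-intervals of 0.5 Mb, with each peak counted at its centre, alternated between crowded and sparse. From 34 to 34.5 Mb there were 45 H3K27ac and 26 H3K4me3 peaks, covering 97.1 and 64.3 kb. The next sub-interval, 34.5 to 35.0 Mb, held 9 peaks of each mark, covering 22.9 and 20.7 kb. From 35.0 to 35.5 Mb there were 41 H3K27ac and 30 H3K4me3 peaks. Their cover, 130.2 kb of H3K27ac and 85.3 kb of H3K4me3, was the highest of the 7 sub-intervals for both marks and came to 26.0 and 17.1% of the sequence. Sparser values returned at 35.5 to 36.0 Mb, with 10 and 12 peaks, and 36.0 to 36.5 Mb held 25 and 26. The sub-interval from 36.5 to 37.0 Mb had 1 peak of each mark, and the last 0.3 Mb had 3 of each.

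The crowded sub-intervals ranked high among the 3844 bins of 0.5 Mb that held a peak of either mark on chromosomes 1 to 19 and X. Those bins had a median of 5 H3K27ac and 3 H3K4me3 peaks and 99th percentiles of 31 and 22. By number of H3K27ac peaks, 34 to 34.5 Mb ranked 6th and 35.0 to 35.5 Mb 10th. By number of H3K4me3 peaks, 35.0 to 35.5 Mb ranked 6th, and 34 to 34.5 and 36.0 to 36.5 Mb shared rank 9. By covered length, 35.0 to 35.5 Mb ranked 4th for H3K27ac and 2nd for H3K4me3. The sub-interval from 36.5 to 37.0 Mb was at the other end, with more H3K27ac peaks in 3073 bins. These ranks depended on where the bins began. With bins moved by 0.25 Mb and counted from 34.25 Mb up, the most crowded held 28 H3K27ac peaks (34.25 to 34.75 Mb) and 25 H3K4me3 peaks (35.75 to 36.25 Mb). Of these bins, 0 exceeded the 99th percentile for H3K27ac and 1 did for H3K4me3, in place of 2 and 3. The moved bin across the lower window edge was not counted. Its part inside the window, 34 to 34.25 Mb, alone held 22 H3K27ac and 16 H3K4me3 peaks. In steps of 0.25 Mb, the crowded stretches were 34 to 34.5 Mb (22 and 23 H3K27ac peaks), 35.0 to 35.5 Mb (23 and 18) and 36.0 to 36.25 Mb (18), with 3 to 7 H3K27ac peaks in each of the other steps below 36.5 Mb.

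**Figure D2:**
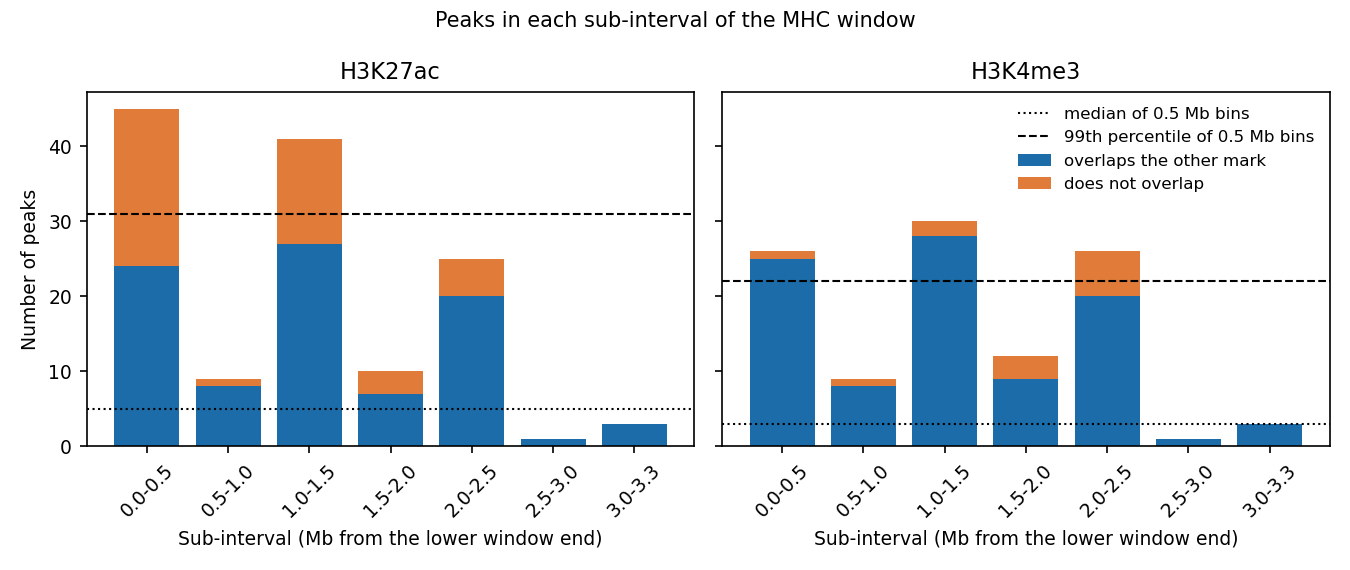
Number of H3K27ac peaks (left) and H3K4me3 peaks (right) in each sub-interval, labelled by its distance in Mb from the lower end of the window; blue parts overlap the other mark and orange parts do not. Dotted and dashed lines are the median and 99th percentile over 3844 bins of 0.5 Mb and do not apply to the last, shorter sub-interval; 2 sub-intervals pass the dashed line for H3K27ac and 3 for H3K4me3.

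Most peaks of the window carried both marks. Of the 134 H3K27ac peaks, 90 (67.2%, exact 95% binomial interval 58.5 to 75.03%) overlapped H3K4me3, compared with 52.3% of the whole H3K27ac list. Of the 107 H3K4me3 peaks, 94 (87.9%, interval 80.1 to 93.4%) overlapped H3K27ac, compared with 86.1% of the whole H3K4me3 list, a share near the background. On the rest of chromosome 17 the shares were 56.4 and 88.5%. These intervals cover counting error only and treat neighbouring peaks as independent. Shared sequence came to 221.3 kb, equal to 67.8% of the H3K27ac length and 88.3% of the H3K4me3 length in the window, against 45.7 and 84.3% over the whole lists.

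Score went with overlap inside the window as it did across the lists. The score is the authors' value for each peak, not defined in the files, with many peaks tied at 3100, here called the ceiling. Of the window's H3K27ac peaks, 39 (29.1%, interval 21.6 to 37.6%) reached 3100 or more, a share near the 24.1% of the whole list. Of its H3K4me3 peaks 68 (63.6%, interval 53.7 to 72.6%) did, compared with 50.3%. All 68 such H3K4me3 peaks overlapped H3K27ac, as did 99.8% of those in the list. All 39 such H3K27ac peaks overlapped H3K4me3 (interval from 91.0%), against 90.8% in the list. H3K27ac peaks scoring 1000 to 3100 overlapped H3K4me3 in 29 of 33 cases (87.9%), against 73.6% in the list. At 100 to 1000 it was 15 of 32 (46.9%), against 33.3%. At 50 to 100 it was 7 of 30 (23.3%), against 15.4%. In each of these 3 lower classes the list's share lay within the window's interval (71.8 to 96.6%, 29.1 to 65.3% and 9.93 to 42.3%). For H3K4me3 the window's shares in the same 3 classes were lower than the list's. They were 10 of 12 (83.3%, against 89.6%), 14 of 21 (66.7%, against 72.3%) and 2 of 6 (33.3%, against 57.65%). Here too the list's shares lay within the window's intervals (51.6 to 97.9%, 43.0 to 85.4% and 4.33 to 77.7%). With the whole list's shares applied to the window's mix of score classes, 56.0% of H3K27ac peaks and 90.9% of H3K4me3 peaks would overlap. The first value lies below the window's interval of 58.5 to 75.03%, and the second lies inside its interval of 80.1 to 93.4%. For H3K27ac the window's share was above the list's in every score class. These differences were not tested.

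**Figure D3:**
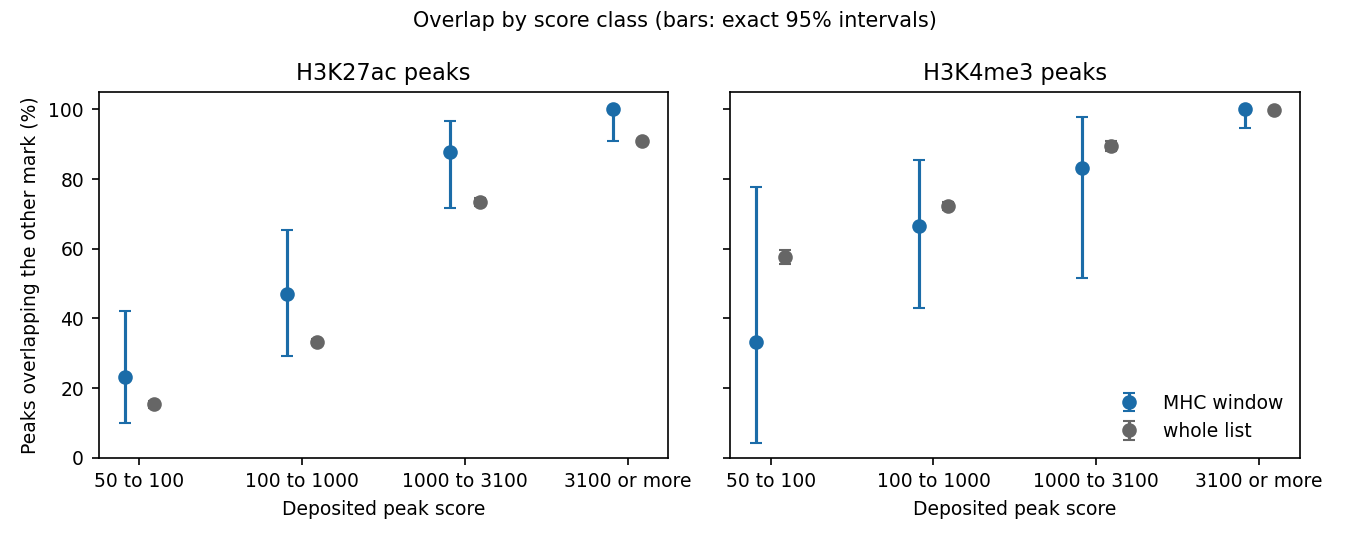
Percentage of H3K27ac peaks (left) and H3K4me3 peaks (right) that overlap the other mark, by class of deposited score, in the window (blue) and in the whole list (grey); points are shares and bars exact 95% binomial intervals. In the window both marks rise from the lowest class (23.3 and 33.3%) to 100% in the highest; in the whole list the highest class reaches 90.8 and 99.8%.

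Sub-intervals differed in which mark stood alone. From 34 to 34.5 Mb, 24 of 45 H3K27ac peaks (53.3%, interval 37.9 to 68.3%) overlapped H3K4me3, while 25 of 26 H3K4me3 peaks overlapped H3K27ac. That sub-interval held 21 of the 44 H3K27ac peaks without H3K4me3 (47.7%). Its H3K27ac overlap share was near that of the whole list. Over the whole lists 52.3% of H3K27ac peaks and 86.1% of H3K4me3 peaks overlapped the other mark. From 35.0 to 35.5 Mb, 27 of 41 H3K27ac peaks (65.9%, interval 49.4 to 79.9%) and 28 of 30 H3K4me3 peaks carried both marks. From 36.0 to 36.5 Mb the shares were alike, 20 of 25 H3K27ac peaks (80.0%, interval 59.3 to 93.2%) and 20 of 26 H3K4me3 peaks (76.9%, interval 56.4 to 91.0%). This last sub-interval held 6 of the 13 H3K4me3 peaks without H3K27ac. Intervals of the 3 crowded sub-intervals overlapped one another for both marks, and the differences were not tested.

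The 44 H3K27ac peaks without H3K4me3 were short, low in score and close to H3K4me3. Their median width was 935.5 bp (interval from order statistics 806 to 1107 bp), against 2385 bp (interval 2055 to 2804 bp) for the 90 with H3K4me3, and against 1252 bp for H3K27ac peaks without H3K4me3 in the whole list. Their median score was 95.7, against 188.2 for such peaks in the list. Scores under 100 were held by 23 of 44 (52.3%, against 31.4% of such peaks in the list), and the ceiling was reached by 0 of 44, against 4.64%. From them the nearest H3K4me3 peak lay at a median of 4.98 kb, against 17.1 kb in the list, and 32 of 44 (72.7%) lay within 10 kb, against 37.3%. None lay farther than 38.3 kb, in a window whose H3K4me3 density was 4.60 times that of the genome. There were 4 of them with scores of 1000 or more, chosen after their values were seen: 1511 at 34346240 to 34349394 (3155 bp, the widest without H3K4me3), 1171 at 34354000 to 34356455, 1310 at 34464855 to 34467498 and 1936 at 34491000 to 34493299. All 4 lay between 34.3 and 34.5 Mb, at 2.60, 10.36, 1.16 and 6.30 kb from H3K4me3. In their score class, 1000 to 3100, 87.9% of the window's H3K27ac peaks overlapped H3K4me3, against 73.6% in the list. Peaks without H3K4me3 were thus not more frequent there than in the list.

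The 13 H3K4me3 peaks without H3K27ac were short as well, with a median of 784 bp (611 to 1019 bp), against 2122 bp (1976 to 2497 bp) for the 94 with H3K27ac. They lay at a median of 26.2 kb from the nearest H3K27ac peak. Both values were close to the 763 bp and 29.9 kb of such peaks in the whole list. Distances ran from 4.79 to 59.2 kb. Of the 13, 3 were 1000 bp wide or more. The peak at 36219804 to 36221342 measured 1539 bp, scored 2047 and lay 26.6 kb from H3K27ac. The peak at 36304145 to 36305514 measured 1370 bp, scored 1111 and lay 31.0 kb away. The third, at 34680582 to 34681600, measured 1019 bp, scored 163.8 and lay 42.0 kb away, next to the long empty stretch below it. The remaining 10 scored under 1000.

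Wide peaks concentrated between 35.0 and 35.5 Mb. Of the window's H3K27ac peaks, 21 (15.7%) were 4000 bp or wider, against 10.9% of the list, and 12 of these 21 lay in that sub-interval. Of its H3K4me3 peaks, 12 (11.2%) were that wide, against 5.83% of the list, and 7 of these 12 lay there. The 10 widest peaks of each mark all scored 3100 and all overlapped the other mark, and 6 of each 10 lay there. The sub-interval from 35.0 to 35.5 Mb held 41 of the window's 134 H3K27ac peaks and 30 of its 107 H3K4me3 peaks. All window peaks scoring 3100 or more overlapped the other mark, against 90.8% (H3K27ac) and 99.8% (H3K4me3) of such peaks in the lists. The widest H3K27ac peak measured 13.4 kb (35336059 to 35349422), with 122 wider peaks in the whole list. The next, 12.2 kb (35350678 to 35362831), began 1.255 kb after its end. The widest H3K4me3 peak measured 8.38 kb (34252907 to 34261284), with 32 wider in its list, and an H3K27ac peak of 8.09 kb (34253165 to 34261250) lay wholly inside it.

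At other wide sites the marks had closely matched borders in some cases and not in others. At 35133313 to 35140959 an H3K4me3 peak of 7.65 kb met an H3K27ac peak of 7.85 kb (35133346 to 35141199). At 34723562 to 34730086, in the sparse second sub-interval, H3K4me3 of 6.53 kb met H3K27ac of 6.50 kb, with 99.6% of the H3K27ac peak under H3K4me3. Borders matched less closely at 36001920 to 36008734, where H3K4me3 of 6.82 kb met H3K27ac of 7.45 kb that began 843 bp before it. Widths differed far more at 35095674 to 35102971, where an H3K27ac peak of 7.30 kb met an H3K4me3 peak of 2.04 kb that covered 27.2% of it. There H3K27ac ran on for 5.31 kb beyond the H3K4me3 peak on its upper side. The 12.2 kb H3K27ac peak was covered by H3K4me3 over 43.6% of its length and the 13.4 kb peak over 59.1%. Also among the 10 widest were H3K27ac of 6.75 kb (35183779 to 35190528) on H3K4me3 of 5.99 kb (35183845 to 35189834), and H3K4me3 of 5.04 kb (36051871 to 36056912). Widest from 35.5 to 36.0 Mb was H3K27ac of 7.09 kb (35973037 to 35980125), which met 3 H3K4me3 peaks, the widest of 4.08 kb (35972556 to 35976637). In the last 2 sub-intervals the widest were single pairs of 1.76 and 2.03 kb (from 36973259 and 36973001) and of 1.98 and 2.09 kb (from 37094369 and 37094380).

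In 87 cases 1 H3K27ac peak met 1 H3K4me3 peak and no other. Their widths were close: the H3K27ac width less the H3K4me3 width had a median of -19 bp (interval -112 to 100 bp), against 37 bp over 13911 such pairs of the whole lists. Regardless of sign the median difference was 292 bp in the window and 435 bp in the lists, and 14 pairs (16.1%) differed by more than 1 kb, against 23.3%. The wider of the 2 peaks was H3K27ac in 40 of 87 (46.0%, interval 35.2 to 57.0%), against 52.4% in the lists. H3K27ac enclosed H3K4me3 in 21 pairs (24.1%, against 36.9%) and the reverse held in 24 (27.6%, against 29.0%). Both peaks were at the ceiling in 32 pairs (36.8%, against 32.8% in the lists) and the H3K4me3 peak alone in 31 (35.6%, against 27.2%). The H3K27ac peak alone was there in 4 (4.60%, against 8.62%) and neither in 20 (22.99%, against 31.3%). The 2 lists' scores are not on a shared scale, so this says how pairs fell within each list. One pair chosen after its values were seen was the uppermost of the window, where H3K4me3 scored 3189 over 1545 bp and H3K27ac scored 52.3 over 616 bp. In 3 cases an H3K27ac peak met several H3K4me3 peaks, and no H3K4me3 peak met several H3K27ac peaks. Single pairs thus held 87 of the window's 90 H3K27ac peaks with H3K4me3, against 13911 of 15409 in the list. They held 87 of its 94 H3K4me3 peaks with H3K27ac, against 13911 of 15617.

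**Figure D4:**
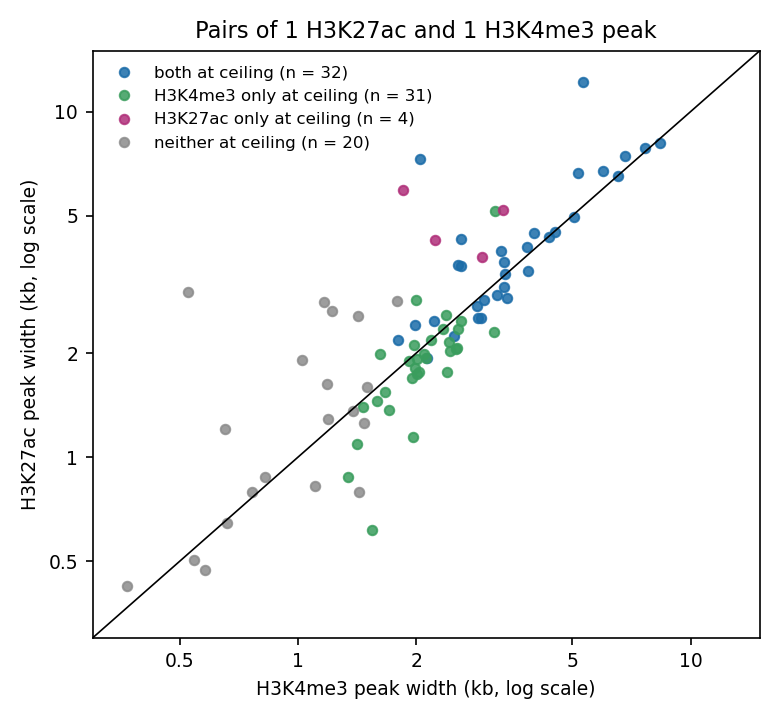
Width of the H3K27ac peak against width of the H3K4me3 peak, both in kb on log scales, for the 87 pairs of 1 peak of each mark; the line marks equal width and colours show which peaks score 3100 or more. Points lie along the line, with 14 pairs more than 1 kb apart in width.

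Joining H3K27ac peaks within 12.5 kb of each other gave 38 stitched regions in the window, of 16134 in all. Of these, 33 (86.8%) held H3K4me3, against 69.7% of all regions, and 14 (36.8%) were single peaks, against 61.9%. Both shares depend on peak density, since the joining distance is fixed. The median gap between H3K27ac peaks was 7.24 kb here and 15.7 kb over chromosomes 1 to 19 and X. The 3 regions with the largest summed peak length held 31 of the 134 peaks and 35.9% of their summed length. The first ran from 35299964 to 35381482 and held 12 H3K27ac peaks with 57.2 kb of summed length, 70.1% of its span, with 9 H3K4me3 peaks. It ranked 20th in the list. The region from 35959008 to 36057134 held 12 H3K27ac peaks with 32.5 kb, 33.1% of its span, and 12 H3K4me3 peaks, and ranked 84th. The region from 35086392 to 35141199 held 7 H3K27ac peaks with 27.4 kb, 49.97% of its span, and 4 H3K4me3 peaks, and ranked 145th. The number of peaks and of regions rests on how the caller divided the signal and on the joining distance.

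The first of these regions was nearly continuous in its middle. Between 35334902 and 35362831, 4 H3K27ac peaks followed one another with gaps that summed to 796 bp, a block of 27.9 kb that ranked 20th in width among 25365 blocks when peaks within 1000 bp were joined. Of these 4 peaks, the 2 wide ones scored 3100 and carried H3K4me3. The 2 between and beside them, of 498 and 1118 bp, scored 57.0 and 57.3 and carried none. Under the block lay H3K4me3 peaks of 7122, 1300 and 5305 bp, with scores of 3100, 283.2 and 3100. Above it in the region followed H3K27ac peaks of 6651 and 4484 bp, each at the ceiling and each with an H3K4me3 peak (5163 and 4517 bp) at the ceiling. Below it, the nearer of a pair of wide peaks was an H3K27ac peak of 5150 bp that scored 2290 and met an H3K4me3 peak of 3167 bp at the ceiling. The other, an H3K27ac peak of 5922 bp at the ceiling, met an H3K4me3 peak of 1848 bp that scored 1958.

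**Figure D5:**
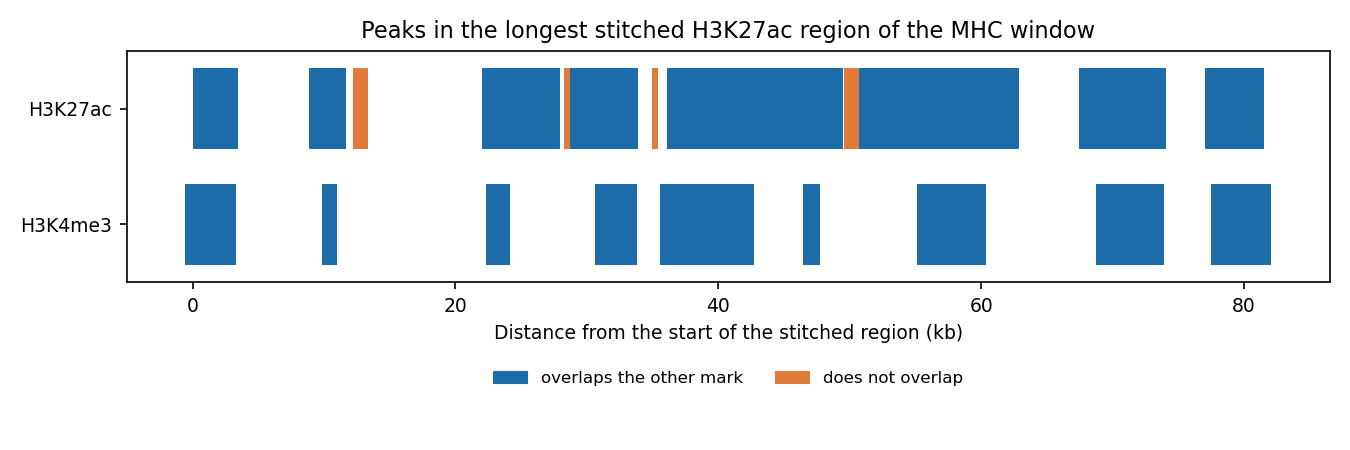
H3K27ac peaks (upper row) and H3K4me3 peaks (lower row) drawn to scale in the stitched region with the largest summed length, by distance in kb from its start; blue peaks overlap the other mark and orange ones do not. The 12 H3K27ac peaks fill 70.1% of the span, and the 9 H3K4me3 peaks lie within or across their borders.

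Beyond the 520.3 kb empty stretch the window held 4 pairs of peaks and nothing else. The H3K4me3 peaks measured 2034, 2013, 2094 and 1545 bp and all scored 3100 or more. The H3K27ac peaks on them measured 1760, 1929, 1983 and 616 bp and scored 1580, 2171, 1789 and 52.3, so none reached the ceiling. All 8 peaks overlapped the other mark. Over the whole lists, 24.1% of H3K27ac and 50.3% of H3K4me3 peaks reached the ceiling, and 52.3 and 86.1% overlapped the other mark. With 4 pairs, a departure from these shares cannot be read from the counts.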

How the data were processed

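Peaks were called by the authors with MACS against mm9, per the submitters' processing notes, on 1 library per mark; the design text names an IgG control. The deposited files list a chromosome, start, end and score for each peak, and the authors' score has no header or label that defines it. The lowest score is 50.01 in both lists, just above 50, which is -10 log10 of the p-value limit of 1e-05 in the lists' names. For the MACS version, aligner, read filters and depth, nothing is stated in these sources. The IgG library was not analysed here.

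Samples were grouped by title. Window peaks and whole lists were compared with Python 3.11.15, pandas 2.3.3, NumPy 2.4.6 and SciPy 1.17.1 as descriptions with no test. Intervals are at 95%: exact (Clopper-Pearson) for shares, from order statistics for medians. Densities use the span from first to last peak of each chromosome. Overlap needed 1 bp. The overlap, joining and distance steps were tested on simulated data. The window, sub-intervals and gene lists were chosen with earlier results of these data known. Since no mm9 annotation was used, named peaks follow the positional rule: the 10 widest of each mark, the widest in each sub-interval, ceiling peaks without the other mark (there were 0), H3K4me3 peaks of 1000 bp or more without H3K27ac, the 3 longest stitched regions and the 3 longest empty stretches. Other peaks were chosen after their values were seen.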

Additional observations from a re-analysis of the deposited data

How the results depend on the processing

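Over 72 alternative values, 54 fell inside the interval given for the result (or, for counts, lengths and other values without an interval, within 1.5 times of it) and 18 did not. With scores of 3100 or more the window held 39 H3K27ac and 68 H3K4me3 peaks, at 4.27 and 5.81 times the genome density. With lists of the same length it held 88 H3K27ac peaks, and the overlaps became 92.0% of H3K27ac and 79.4% of H3K4me3 peaks, against 72.3 and 75.3% of the whole lists so treated. With scores of at least 100 the H3K27ac overlap became 78.8%, against 56.4% of the whole list, and H3K27ac peaks without H3K4me3 had a median width of 1433 bp and a median score of 253.1, as removing low scores must raise it. Sub-intervals moved by 0.25 Mb were counted from 34.25 Mb up, without the bin across the lower window edge. They gave a highest H3K27ac number of 28, with 0 (H3K27ac) and 1 (H3K4me3) full sub-intervals above the 99th percentile. Stitching within 5000 bp gave 78 regions with 23.7% of the length in the 3 longest. Stitching within 25000 bp gave 23 regions, 63.6% and a largest summed peak length in 1 region of 91.1 kb. That region lay at the lower window edge and was not the one from 35299964 to 35381482. It reached below the window, because the H3K27ac peak ending at 33980869 lies within 25000 bp of the one starting at 34001926. The 63.6% and 91.1 kb thus include peaks outside the window. No paired analysis was possible because each mark had 1 library. The depth behind a peak is unknown, so a position without a peak may hold signal below the caller's limit, and 13 H3K4me3 peaks without H3K27ac give wide intervals.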
